A study of Triticum aestivum with 4 samples.

Results

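Gliadins and low-molecular-weight (LMW) glutenins are prolamins, the storage proteins that make up most of wheat gluten. Gliadins are largely monomeric and give dough its viscosity, and LMW glutenins are joined by disulfide bonds into polymers that give it strength. Their genes form multigene families and are transcribed in the starchy endosperm, mainly during grain filling, after the endosperm has become cellular. The proteins enter the endoplasmic reticulum and collect in protein bodies. The question here was which of their probe sets gave a signal above unspecific hybridisation at 5 days after anthesis, before the main filling phase, and how the genotypes compared.

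The members were all probe sets of the Affymetrix wheat array whose identifiers begin with Ta.24114., Ta.15268., Ta.28632., Ta.30782. or Ta.160., which is 29 of 61115 wheat probe sets. Each prefix is a cluster of expressed sequences, and the number after it is a sub-cluster. The 29 probe sets fell in 5 clusters and 22 sub-clusters. Ta.24114 held 17 probe sets, Ta.15268 held 1, Ta.28632 held 2, Ta.30782 held 4 and Ta.160 held 5.

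The study measured developing seed of RL4452 and AC Domain, the parents of a wheat mapping population grown in the field with their progeny, with 2 biological replicates per genotype and 1 array for each. Neither genotype carried a treatment or an introduced allele in the labels. Spikes were tagged when anthers showed, whole developing seeds were frozen 5 days later, and polyadenylated RNA was labelled with biotin. The labels do not tie a replicate to a field plot, so the p-values measure the spread between these samples only. Seed is a mixture of tissues, and fewer endosperm cells cannot be told apart from less RNA per cell. Because both genotypes were sampled at a single age, no value here bears on a change over time.

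Deposited intensities were RMA values on a linear scale, set to log2 for all tests. A genotype difference is RL4452 minus AC Domain in log2, with its standard error from limma, and adjusted p is the Benjamini-Hochberg value over all 61115 wheat probe sets. Probe sets differ in how well their probes bind, so intensities of different probe sets are not read as relative RNA amounts. Whether a probe set lies above or below a control level also depends on that binding. With 2 arrays per genotype the precision is limited, and an exact permutation test could not give a p below 0.333.

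Unspecific hybridisation was set from control probe sets designed for genes that wheat lacks. The stricter control level was the 95th percentile over the 4 arrays of 69 probe sets, 6 for the unspiked Bacillus trp genes and 63 for reporter genes, an intensity of 49.8. Some reporter probe sets may carry real signal, which would raise this level; the trp probe sets alone gave an intensity of 16.6, with 14 rather than 8 members above it in both genotypes. Of all wheat probe sets, 42.1% had a mean above the stricter level and 67.5% above that of the trp probe sets alone. A lower level, chosen after the control values had been seen, used the 6 trp and 17 artificial Tag probe sets, 23 in all, and gave an intensity of 22.3, with 59.4% of wheat probe sets above it. A probe set between the levels is called above the lower level only.

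Prolamin names in the annotation covered only part of the members. RefSeq names for wheat (assembly IWGSC CS RefSeq v2.1), reached through the platform annotation, gave a gene with a prolamin synonym to 10 of the 29 probe sets, from 6 genes. A further 6 probe sets belonged to 2 genes with no synonym of any kind, LOC543484 with 4 probe sets and LOC100037526 with 2. All 6 lay in Ta.24114, in sub-clusters 2, 3, 4 and 7. The remaining 13 had no gene named. Ta.24114 is a cluster of alpha gliadins by its designation, yet gliadin names covered 3 of its 17 probe sets. A missing name does not show what a probe set measures, so the cluster is called by its identifier below. Of the 29 probe sets, 18 ended in x_at, which marks probes that can match other sequences as well, 3 in a_at and 1 in s_at, both shared by several transcripts. Signals of single gliadin or glutenin genes are therefore uncertain, as are those of near-identical copies.

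Above the stricter level in both genotypes were 8 of the 29 probe sets, from 8 sub-clusters. They were Ta.24114.2, Ta.24114.3 (probe set S1_a_at), Ta.24114.4, Ta.24114.7 (A1_at), Ta.24114.13, Ta.30782.2 (S1_a_at), Ta.160.2 (S1_x_at) and Ta.160.3 (S1_x_at). Ta.24114.6 was above it in RL4452 and not in AC Domain. Above the lower level only, in both genotypes, were Ta.15268.1 and Ta.24114.7 (S1_a_at). Ta.24114.1 was above the lower level in RL4452 alone, and the remaining 17 lay below both levels. By annotation, 4 of the 6 probe sets of LOC543484 and LOC100037526 were above the stricter level in both genotypes. Of the 13 without a gene, 3 were, and of the 10 with a prolamin gene, 1 was.

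**Figure D1:**
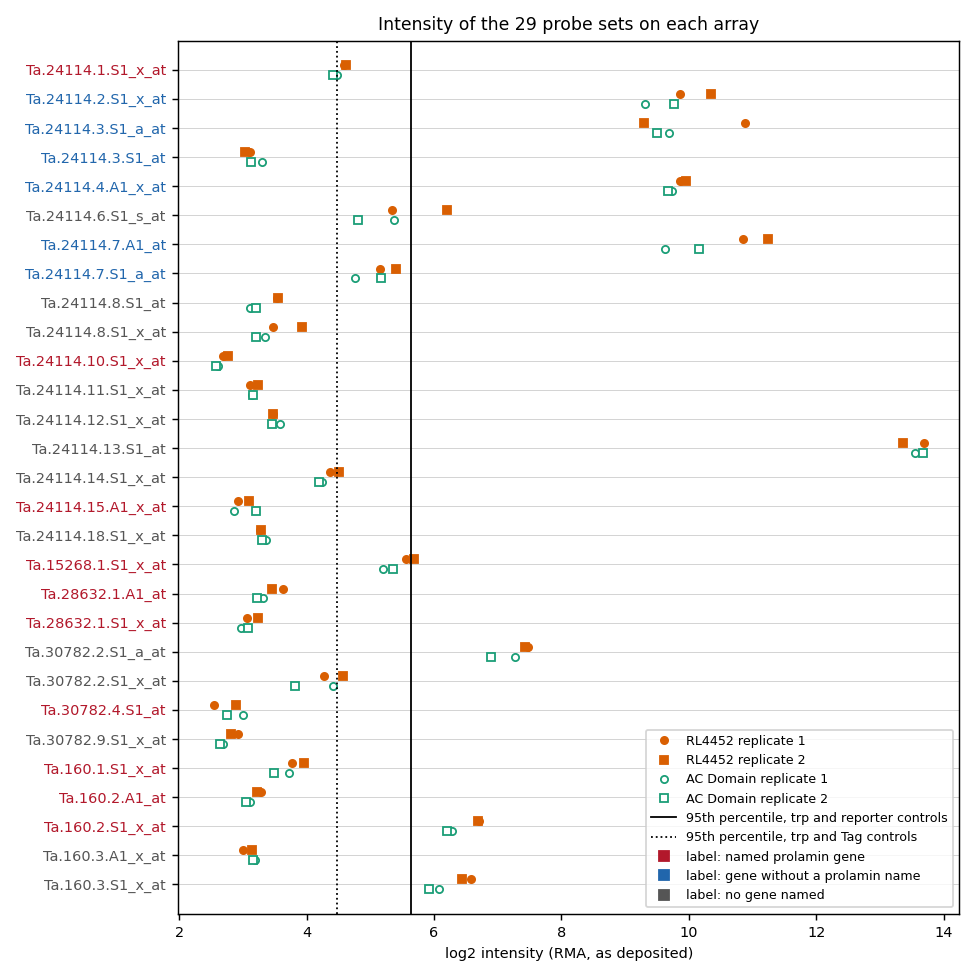
Log2 intensity of each of the 29 probe sets (rows) on each array, with RL4452 in filled orange and AC Domain in open green, circles for replicate 1 and squares for replicate 2. The solid line is the stricter control level and the dotted line the lower one, and label colours give the annotation; of the 10 red prolamin labels, only Ta.160.2.S1_x_at has its points right of the solid line.

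That plot of intensity by array also shows where sub-clusters disagree within themselves. Ta.24114.3.S1_a_at read 1884 and 631 in RL4452, against 827 and 724 in AC Domain, while Ta.24114.3.S1_at of the same sub-cluster read 8.66 and 8.19 in RL4452, against 9.78 and 8.70 in AC Domain. The sub-cluster was thus above the level by 1 of its probe sets and below both levels by the other. Ta.24114.7, Ta.30782.2, Ta.160.2 and Ta.160.3 each had a second probe set that was not above the stricter level. A sub-cluster is counted as above when any of its probe sets was. What the letters A and S in the identifiers mean is not given in the labels or annotation used, so whether an A1 and an S1 probe set read the same transcript, or the same strand, is not known here.

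No member passed the test between genotypes. In limma's fit over all wheat probe sets 0.800% were called at an adjusted p under 0.05, and 0 of the 29 members were, with a lowest adjusted p of 0.245. At an unadjusted p under 0.05 there were 3 members, all higher in RL4452, against 9.16% of all wheat probe sets in either direction and 3.74% higher in RL4452. Differences ran from -0.16 to 1.15, with standard errors between 0.16 and 0.53.

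The mean was higher in RL4452 for 22 of the 29 members and lower for 7, where 58.4% of all wheat probe sets were higher. Most members, 21 of the 29, had a mean at or below the stricter level. Of wheat probe sets at or below it 67.3% were higher in RL4452, and of the negative controls 50 of 69 were. Both RL4452 arrays lay above both AC Domain arrays for 16 members, which is 55.2% of them, against a background of 24.0%, and both AC Domain arrays lay above for 3 members, against 15.9%. The other 10 overlapped. Across the members the median difference was 0.22, and over all wheat probe sets it was 0.05. Members share probes and targets, so they are not independent of one another.

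**Figure D2:**
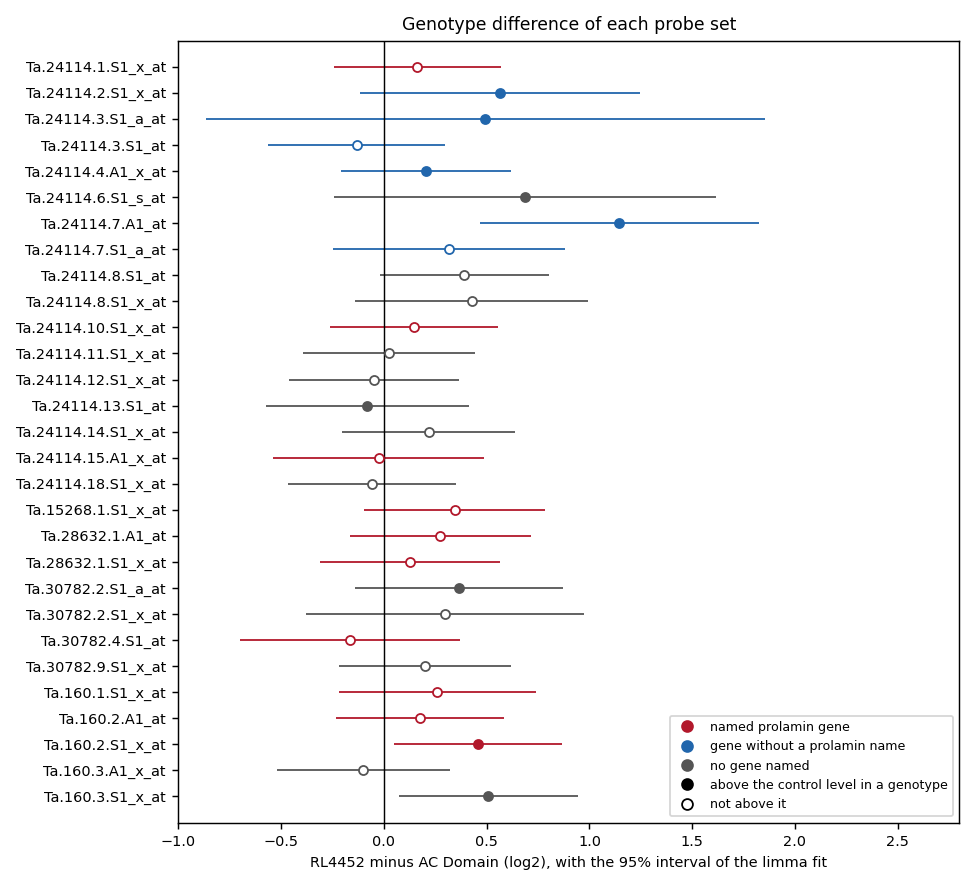
Genotype difference of each probe set, RL4452 minus AC Domain in log2 (horizontal axis), with the 95% interval of the limma fit as a bar; filled points were above the stricter control level in a genotype and open points were not. Most points lie right of 0, the intervals of 3 filled points (Ta.24114.7.A1_at, Ta.160.2.S1_x_at and Ta.160.3.S1_x_at) lie wholly right of it before any adjustment for multiple tests, and the widest bar belongs to Ta.24114.3.S1_a_at.

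Dim and bright probe sets had different backgrounds in this contrast. Among wheat probe sets at or below the stricter level 67.3% had a higher mean in RL4452, and the negative controls leaned the same way, with 50 of 69 higher in RL4452 and a median difference of 0.07. Among those above the level 46.2% were higher and the median difference was -0.03. Of the 8 members with a mean above the level, 7 were higher in RL4452, and in 6 both RL4452 arrays lay above both AC Domain arrays, against 18.5% of wheat probe sets above the level. Of the 21 members at or below it, 15 were higher in RL4452 and 10 had both RL4452 arrays above, against 27.9% of wheat probe sets at or below the level.

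**Figure D3:**
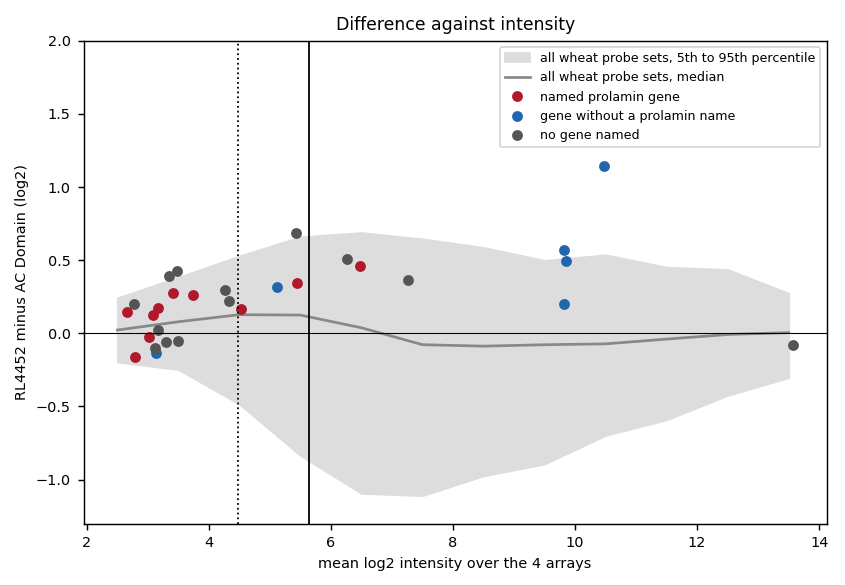
Genotype difference (RL4452 minus AC Domain, log2) against the mean log2 intensity over the 4 arrays, with the median (line) and the 5th to 95th percentile (band) of all wheat probe sets in bins 1 log2 unit wide; the solid and dotted lines are the stricter and lower control levels. Near the levels the grey median lies above 0 (0.13 in the bin from 4 to 5) and in the bins from 7 to 13 it lies below 0 (-0.08 in the bin from 7 to 8); Ta.24114.7.A1_at, at 1.15, is the member farthest above the band.

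An LMW glutenin gene was the one named prolamin gene among the members with a signal above the stricter level. LOC543213, the annotated LMW glutenin gene with the synonyms Glu-D3 and LMW-GS, was measured by 3 probe sets of Ta.160. Ta.160.2.S1_x_at read 105 and 103 in RL4452, against 77.4 and 74.0 in AC Domain. Every array was above the stricter level and both RL4452 arrays were above both AC Domain arrays. The difference was 0.46 ± 0.16 (SE, 2 arrays per genotype), a 1.37-fold higher mean in RL4452 with a 95% interval of 1.03 to 1.82, and limma's adjusted p was 0.492. The same gene's other probe sets were below both levels. Ta.160.1.S1_x_at read 13.6 and 15.6 in RL4452, against 13.2 and 11.2 in AC Domain, and Ta.160.2.A1_at read 9.74 and 9.31 in RL4452, against 8.60 and 8.26 in AC Domain. Probe sets annotated to 1 gene thus lay above and below the level.

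Ta.160.3 had no gene named. Its probe set S1_x_at read 95.5 and 87.1 in RL4452, against 67.6 and 60.8 in AC Domain. Again the groups did not overlap, and the difference was 0.51 ± 0.17 (fold 1.42, 95% interval 1.05 to 1.92; adjusted p of limma 0.467). Ta.160.3.A1_x_at, at 8.01 and 8.84 in RL4452 against 9.12 and 8.91 in AC Domain, was below both levels and had both AC Domain arrays on top. Both Ta.160 probe sets above the level ended in x_at, and whether they read the same transcripts was not tested.

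Gamma gliadins gave no signal above either level through their annotated gene. LOC543214, with the synonyms Gli-1, GAG56D and gamma-2 to gamma-5, was measured by Ta.28632.1.A1_at, Ta.28632.1.S1_x_at and Ta.30782.4.S1_at. Ta.28632.1.A1_at read 12.4 and 10.9 in RL4452, against 9.95 and 9.31 in AC Domain, without overlap. Ta.28632.1.S1_x_at read 8.37 and 9.43 in RL4452, against 7.83 and 8.45 in AC Domain, with overlap. Ta.30782.4.S1_at went the other way, at 5.83 and 7.39 in RL4452, against 8.03 and 6.72 in AC Domain, with overlap and a difference of -0.16. Adjusted p-values of limma for these 3 ran from 0.703 to 0.868. In the RefSeq order LOC543214 lies on the same sequence as LOC543213, with 41 protein-coding genes between them. The LMW glutenin gene had a probe set above the level and the gamma gliadin gene had none.

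Ta.30782.2 was above the level without a named gene. Its probe set S1_a_at read 177 and 172 in RL4452, against 154 and 119 in AC Domain. The arrays did not overlap, and the difference was 0.37 ± 0.20 (fold 1.29; adjusted p of limma 0.664). Ta.30782.2.S1_x_at read 19.3 and 23.7 in RL4452, against 21.4 and 14.1 in AC Domain, so the genotypes overlapped and both means lay below the lower level. Ta.30782.9.S1_x_at was also below both levels, with a difference of 0.20.

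Gliadin genes with gli-2 names were not above the stricter level in either genotype. LOC543211, with the synonyms gli-2 and Prolamin, came closest through Ta.15268.1.S1_x_at, at 47.0 and 51.4 in RL4452, against 36.6 and 41.1 in AC Domain. A single array, RL4452 replicate 2, passed the stricter level, and all 4 passed the lower one. The controls of that array alone gave a level of 5.85 in log2, above the 5.68 of this probe set on it. Both RL4452 arrays were above both AC Domain arrays, by 0.34 ± 0.17 (95% interval -0.10 to 0.78; adjusted p of limma 0.642). LOC543210, which carries Gli-D2-16 among its synonyms, gave 24.1 and 24.5 in RL4452, against 22.2 and 21.2 in AC Domain through Ta.24114.1.S1_x_at, on either side of the lower level. LOC543212, or Gli-D2-1, and LOC543385, or Gli-B2-11, were below both levels through Ta.24114.10 and Ta.24114.15. Outside the clusters, LOC543212 was also measured by Ta.6699.1.S1_at, at 18.2 and 23.7 in RL4452, against 20.1 and 21.2 in AC Domain. Both of its means lay below the lower level, and RL4452 replicate 2 alone passed it. LOC543210 and LOC543212 lie close to each other in the RefSeq order, with 6 protein-coding genes between them.

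Across all 10 probe sets with a prolamin gene, 8 had a higher mean in RL4452 and 2 a lower one, and in 7 both RL4452 arrays were above. Their median difference was 0.17. Of all wheat probe sets, 58.4% were higher and 24.0% had both RL4452 arrays above. Only 1 of the 10 was above the stricter level, and for wheat probe sets at or below it the shares were 67.3% and 27.9%. For the 7 prolamin gene probe sets that were below both levels, the values lie in the range of the negative controls. A genotype difference in their RNA was not detectable at this signal.

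Sub-clusters 2, 3, 4 and 7 of Ta.24114, which map to LOC543484 and LOC100037526, each had a probe set far above the control levels. Ta.24114.7.A1_at, annotated to LOC100037526, had the largest difference of all members; being an A1 probe set, it may or may not read the transcript of that gene. It read 1838 and 2415 in RL4452, against 791 and 1146 in AC Domain. The lower RL4452 array was above the higher AC Domain array, and within the same replicate number the differences were 1.22 and 1.07. The mean was 2.21-fold higher in RL4452 (difference 1.15 ± 0.26, 95% interval 1.38 to 3.54-fold, unadjusted p of limma 0.0074, adjusted p 0.245). Ta.24114.7.S1_a_at, of the same sub-cluster, lay between the control levels at 35.4 and 42.5 in RL4452, against 27.1 and 35.8 in AC Domain. There the genotypes overlapped, with a difference of 0.32 ± 0.22.

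Ta.24114.2.S1_x_at read 928 and 1302 in RL4452, against 632 and 870 in AC Domain. RL4452 was on top with a difference of 0.57 ± 0.26 (fold 1.48; adjusted p of limma 0.625). Within replicates 1 and 2 it was 0.55 and 0.58, closer to each other than the arrays of either genotype were. Ta.24114.4.A1_x_at read 935 and 994 in RL4452, against 857 and 820 in AC Domain, again without overlap, and differed by 0.20 ± 0.16 (adjusted p of limma 0.761).

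Ta.24114.3.S1_a_at, whose values are given above, overlapped. Its difference of 0.49 ± 0.53 had the widest interval of the members, -0.87 to 1.85 (adjusted p of limma 0.828). Within replicate 1 it was 1.19 and within replicate 2 it was -0.20, and without RL4452 replicate 1 the difference became -0.30. The RL4452 arrays also stood apart in the run records and in RNA quality. RL4452 replicate 2 has a wash protocol recorded as aborted, with 0 wash cycles against 41 for each of the other 3 arrays. The mean log2 excess of 3' over 5' probe sets of 7 wheat control genes was 0.55 and 1.69 in RL4452, against 1.08 and 1.21 in AC Domain. Their part in any member's difference was not tested.

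Of the probe sets without a gene, Ta.24114.13.S1_at was far above the control levels. It read 13224 and 10550 in RL4452, against 11985 and 13035 in AC Domain. The genotypes overlapped, and the difference was -0.08 ± 0.19 with a 95% interval of -0.58 to 0.41 (adjusted p of limma 0.935). It was the single member above the level whose mean was lower in RL4452, and without RL4452 replicate 2 the difference became 0.08. Of the 780 probe sets with a named gene outside the clusters and all 4 values above the level, the closest to its profile were those of LOC542880, LOC543462 and LOC542899. Their root mean square distances over the 4 arrays, after centring, were 0.0126, 0.0205 and 0.0252 log2 units. Nothing is read from these beyond likeness over 4 arrays.

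Ta.24114.6.S1_s_at read 40.6 and 73.5 in RL4452, against 41.2 and 28.0 in AC Domain. A single array, RL4452 replicate 2, whose wash was recorded as aborted, lifted the RL4452 mean past the stricter level. The genotypes overlapped and the difference was 0.69 ± 0.36 (95% interval -0.24 to 1.61; adjusted p of limma 0.657), with -0.02 within replicate 1 and 1.39 within replicate 2. The other 9 probe sets without a gene were below both levels. Of these, 6 had a higher mean in RL4452, 4 had both RL4452 arrays above and 2 had both AC Domain arrays above. Among all wheat probe sets at or below the stricter level 67.3% were higher and 27.9% had both RL4452 arrays above, so these counts are near the background.

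**Figure D4:**
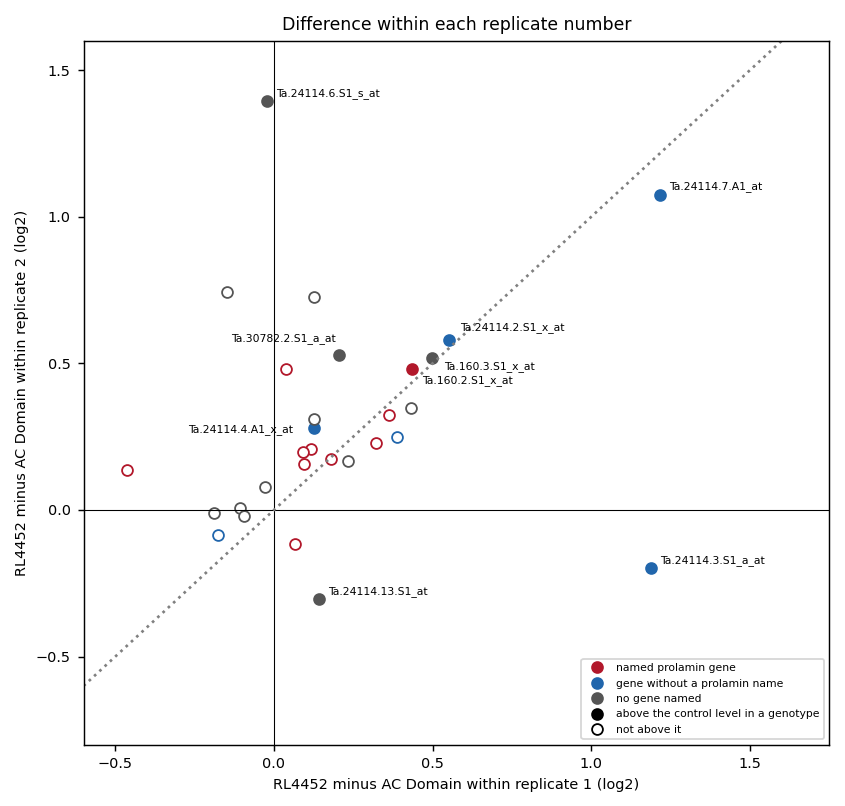
Difference within replicate 2 (vertical axis) against the difference within replicate 1 (horizontal axis), RL4452 minus AC Domain in log2, each from 1 array per genotype; filled points were above the stricter level in a genotype, and the dotted line marks equal differences. Ta.24114.7.A1_at, Ta.24114.2.S1_x_at, Ta.160.2.S1_x_at and Ta.160.3.S1_x_at lie near the line, while Ta.24114.3.S1_a_at (1.19 and -0.20) and Ta.24114.6.S1_s_at (-0.02 and 1.39) lie far from it.

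Same-numbered arrays of the genotypes share a project in the instrument's run files, so the difference was also taken within each replicate number. In replicate 1, 21 of 29 were higher in RL4452, in replicate 2, 23 were, and 18 were in both. By their means, 58.4% of all wheat probe sets and 67.3% of those at or below the stricter level were higher. The share within each replicate number was not taken over all wheat probe sets. These counts are therefore not read as particular to the members. Median differences of the members were 0.13 and 0.23. In 5 of the 8 members above the level in both genotypes, the within-replicate values differed by less than 0.2 log2 units, and in 2, Ta.24114.3.S1_a_at and Ta.24114.13.S1_at, they differed in sign.

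Other genes of grain storage were few among named probe sets. Storage proteins other than prolamins, regulators of prolamin genes and protein body folding enzymes had no named member, so these 3 lists are empty. Prolamin genes outside the clusters gave 7 probe sets. Of these, Ta.27777.1.S1_at was above the stricter level in both genotypes, and 0 of 7 passed limma's test (0 also at an unadjusted p under 0.05). It measures LOC100125692, an avenin-like protein gene, and read 1313 and 1227 in RL4452, against 968 and 1128 in AC Domain, by 0.28 ± 0.17 (adjusted p of limma 0.704). The median of the 7 differences was 0.07, with 6 higher in RL4452, where 58.4% of all wheat probe sets and 67.3% of those at or below the stricter level were.

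Starch synthesis is the other storage programme of the endosperm. In its list of 4 probe sets, 3 were above the stricter level in both genotypes. A higher mean in RL4452 was seen in 3 of the 4, against 58.4% of all wheat probe sets. Only 1 of the 4 was called, as higher in RL4452, where 0.224% of all wheat probe sets were. That was GBSS-I (LOC543395), the granule-bound starch synthase that makes amylose, which read 1672 and 1406 in RL4452, against 356 and 243 in AC Domain (difference 2.38, adjusted p of limma 0.0344). AGP-S, a subunit of ADP-glucose pyrophosphorylase, read 1626 and 1326 in RL4452, against 1659 and 1750 in AC Domain, a difference of -0.21 (adjusted p 0.780). Of AGA.1, Ta.23665.1.S1_at read 367 and 280 in RL4452, against 207 and 297 in AC Domain, with overlap. Without either AC Domain array no wheat probe set was called, GBSS-I included.

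In the lists of other seed tissues 0 probe sets passed limma's test at an adjusted p under 0.05, where 0.800% of all wheat probe sets did. An unadjusted p under 0.05 was reached by 2 of 18 histone, 1 of 31 photosynthesis and 1 of 7 purothionin or lipid transfer protein probe sets. The share over all wheat probe sets was 9.16%. Histone H2A and H2B genes, which mark dividing cells, were above the stricter level in both genotypes for 17 of 18 probe sets. All 18 had a higher mean in RL4452, where 46.2% of wheat probe sets above the level did. The summed intensity of these 18 was 58776 and 67078 in RL4452, against 51572 and 52092 in AC Domain. Of the embryo probe sets (LEA and related proteins), 0 of 6 were above the level, and 6 of 6 had a higher mean in RL4452, with a median difference of 0.20. In 5 of the 6 the genotypes overlapped. Among wheat probe sets at or below the level 67.3% were higher in RL4452. The photosynthesis list of the pericarp held 31 probe sets from 3 genes, most of them for rbcL. Of these 31, 7 were above the stricter level, 20 were below both levels and 11 were higher in RL4452. Of the 7 purothionin and lipid transfer protein probe sets, 6 had a lower mean in RL4452 and 1 a higher one, with a median difference of -0.30. Over all wheat probe sets 58.4% were higher. These 7 summed to 14889 and 5723 in RL4452, against 13359 and 9609 in AC Domain. Ta.1282.1.S1_x_at of LTP3 made up most of that sum, with 14689 and 5536 in RL4452, against 13090 and 9370 in AC Domain. The other LTP3 probe set, Ta.1282.4.S1_at, had a difference of 0.43. Whether tissue make-up had a part in the members' differences was not tested.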

How the data were processed

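In all, 4 wheat GeneChip arrays were used, 2 per genotype, grouped by the labels. The deposited values are probe set intensities on a linear scale (4.74 to 25900), made with RMA per the submitters' processing notes, with no version given; whether RMA ran on these 4 alone is not stated. Run files were read for project and wash record only.

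Intensities were log2-transformed without further normalisation. Of 61290 probe sets, 175 controls were left out and 61115 tested with limma 3.58.1 in R 4.3.3 (genotype as factor, two-sided, Benjamini-Hochberg adjusted p under 0.05). The fit had 2 residual degrees of freedom and 2.97 from the prior. Array medians were 33.7 and 33.4 in RL4452, against 32.5 and 31.9 in AC Domain.

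Negative controls were trp and reporter probe sets. One reporter more than 2 log2 units above the rest was left out, and the dap, lys, phe and thr controls, taken as spiked, were not used. Genes were named through GEO's platform annotation and RefSeq names, which name 1273 probe sets of 771 genes.

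Same-numbered arrays of the 2 genotypes share a project in the run files, and the correlation of their deviations from the genotype means was 0.398. With 2 arrays per genotype, one pair's deviations mirror the other's. The project is therefore a possible batch, and within-replicate values stand beside the results.

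Every member is accounted for. All 4 values are given for members above the stricter level or with an unadjusted p under 0.05, and for some others. Of the lists of storage genes, every member above that level is named. The members and lists were chosen with earlier results of these data known. Alternatives covered scaling, filter, prior, block, offset, control level and left-out arrays. Sequences were not used here.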

Additional observations from a re-analysis of the deposited data

How the results depend on the processing

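No member was called under any alternative. The count over all wheat probe sets was 489, became 143 with an offset of 16 added to the intensities (chosen after seeing the data), 488 with dim probe sets left out, 512 with quantile normalisation, 543 with median centring, 630 with an intensity trend and 667 with the replicate number as a block, and ran from 0 to 1031 when 1 array was left out. It was 0 without AC Domain replicate 1 and without AC Domain replicate 2, 998 without RL4452 replicate 2 and 1031 without RL4452 replicate 1, with the lone array assumed to vary like the other genotype. With the replicate block the count of members called was 0, their median difference 0.22 and their lowest adjusted p 0.0864, that of Ta.24114.7.A1_at. Without RL4452 replicate 2 the lowest was 0.0649, that of Ta.24114.3.S1_a_at.

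The median difference of the members (0.22) was 0.48 over the 8 left by the filter on dim probe sets, 0.12 with the offset of 16, which shrinks differences of dim probe sets, 0.16 with median centring, and 0.16 to 0.23 with 1 array left out. Members higher in RL4452 numbered 21 with median centring or quantile normalisation, when 49.0% and 54.9% of all wheat probe sets were. Ta.24114.3.S1_a_at reversed to -0.30 without RL4452 replicate 1 and was 1.28 without RL4452 replicate 2, and Ta.24114.13.S1_at ran from -0.24 without RL4452 replicate 1 to 0.081 without RL4452 replicate 2; in both the RL4452 arrays differ more than the AC Domain arrays.

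The count above the control level in both genotypes was 8, and 14 with the bacterial controls alone. It ran from 6 to 11 under the other levels. Array number and dim signal limit the members below both levels.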

Other observations

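Among the seed-tissue genes, purothionin THI1.1 (Ta.23967.1.S1_s_at) read 52.9 and 24.4 in RL4452, against 96.7 and 80.8 in AC Domain, without overlap. The value of 24.4 is from RL4452 replicate 2, the array with the wash recorded as aborted. In its list of 7 probe sets the lowest adjusted p of limma was 0.415. Both AC Domain arrays lay above for 3 of these 7, against 15.9% of all wheat probe sets. Anther genes gave 0 of 4 probe sets above the stricter level in both genotypes and 1 above it in RL4452 alone. That was Ta.4091.1.S1_x_at of raftin1b, at 50.2 and 51.0 in RL4452, against 52.9 and 42.2 in AC Domain, with overlap. The profile of Ta.160.2.S1_x_at, looked at after its values were seen, was closest to those of LOC543090, LOC100037558 and Hmgb3, a high mobility group protein gene, at 0.0443, 0.0486 and 0.0571 log2 units over the 4 arrays.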
